A study of Mus musculus with 8 samples.

Results

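The 39 genes described here are interferon-stimulated antiviral genes of the mouse together with STAT2 and the 4 chains of the type I and type II interferon receptors. They were chosen as a named list, and each was read from a row of the expression table that carries its gene symbol alone. Such a row existed for 34 of the 39 among 22180 named genes. Oas1a, Dtx3l, Ifi203 and Ifi27l2a were listed only in rows shared with other genes and Ifi44 in none, so these 5 were not analysed here. Of the 34, 26 had a mean of at least 5.24 on the log2 scale over all arrays, the limit set for dim genes, and 8 were dimmer (Ifit3b, Oas1g, Oas2, Oasl1, Oasl2, Mx1, Mx2 and Ifi204).

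PD-1hi effector CD8 T cells had been sorted from spleens of female C57BL/6 mice (one label reads C56BL/6) that carried a transplanted murine chronic lymphocytic leukaemia (CLL) of Eµ-TCL1 origin, in which a TCL1 transgene under a B cell promoter and enhancer gives rise to the leukaemia. Sorting, 5 weeks after transplantation, kept lineage-negative TCRb+ CD8+ cells with low CD127, intermediate to high levels of CD44 and high PD-1. From 3 weeks on and for 2 weeks, the mice of 4 samples received an antibody that blocks the interleukin 10 receptor (anti-IL-10R) and those of the other 4 an isotype control antibody. Both groups carried the leukaemia. Each sample was hybridised to 1 array. Whether the arrays stem from separate animals is not stated in the labels, and the p-values therefore refer to array-to-array spread.

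Type I interferons bind a receptor made of IFNAR1 and IFNAR2, and the kinases JAK1 and TYK2 then pass the signal on by phosphorylation, to STAT2 among others. STAT2 acts with IRF9 in a complex that binds the interferon-stimulated response element in the promoters of antiviral genes. The products act against viral RNA, viral protein and the release of particles, and several of them are also made at low levels by T cells without infection. Interferon gamma, which activated CD8 T cells secrete, signals through IFNGR1 and IFNGR2 and shares part of these target genes.

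The promoter sequences show where letters of this response element occur near the start of these genes. Its core, searched as GAAA, any 2 bases and GAAA again on either strand in the 250 bases before the annotated start (RefSeq, GRCm38.p6), was present in 14 of the 30 members that had a sequence, or 46.7%, against 3.46% of all 27025 genes with windows of the same length. Neighbouring matches may overlap. Members with and without a match are set beside their expression further on. The windows shown come from members described in the results and from Trim30a, a gene of the same pathway, and capitals mark the matches.
Isg15 (chr4:156200861-156200910, minus strand): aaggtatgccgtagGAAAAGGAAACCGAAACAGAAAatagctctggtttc
Ifit1 (chr19:34640774-34640823, plus strand): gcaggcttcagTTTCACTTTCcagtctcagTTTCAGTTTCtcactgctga
Ifit1bl1 (chr19:34602043-34602092, minus strand): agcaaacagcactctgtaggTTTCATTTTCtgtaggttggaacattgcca
Ifit3 (chr19:34583360-34583429, plus strand): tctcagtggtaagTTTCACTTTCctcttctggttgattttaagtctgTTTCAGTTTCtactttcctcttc
Ifit3b (chr19:34607756-34607825, plus strand): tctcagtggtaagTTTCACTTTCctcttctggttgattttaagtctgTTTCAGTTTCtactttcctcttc
Oas1g (chr5:120887614-120887663, minus strand): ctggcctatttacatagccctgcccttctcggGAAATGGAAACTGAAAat
Oas3 (chr5:120777705-120777754, minus strand): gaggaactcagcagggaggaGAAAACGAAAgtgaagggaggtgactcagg
Bst2 (chr8:71537570-71537619, minus strand): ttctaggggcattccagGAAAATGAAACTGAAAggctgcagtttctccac
Rsad2 (chr12:26456543-26456592, minus strand): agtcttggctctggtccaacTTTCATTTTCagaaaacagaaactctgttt
Ddx60 (chr8:61928017-61928086, plus strand): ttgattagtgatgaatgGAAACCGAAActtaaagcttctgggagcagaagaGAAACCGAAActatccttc
Stat2 (chr10:128270256-128270305, plus strand): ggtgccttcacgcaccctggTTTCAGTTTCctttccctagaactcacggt
Trim30a (chr7:104465200-104465249, minus strand): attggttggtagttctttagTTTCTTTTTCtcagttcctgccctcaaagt
Isg15 held 3 overlapping matches. Ifit3 and Ifit3b shared an unbroken run of 169 of the 250 bases, which includes the window shown, so these windows do not tell the genes apart. Samd9l is shown over its whole 250 bases because it had the smallest p-value of all members and held no match.
Samd9l (chr6:3399572-3399821, minus strand): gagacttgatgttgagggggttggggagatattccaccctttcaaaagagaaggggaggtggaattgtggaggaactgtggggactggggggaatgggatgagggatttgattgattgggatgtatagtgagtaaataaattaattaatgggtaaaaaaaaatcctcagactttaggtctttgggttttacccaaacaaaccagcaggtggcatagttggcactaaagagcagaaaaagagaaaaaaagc
A match is a description of these letters and not a bound site.

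Values are deposited log2 signals, and differences give anti-IL-10R minus isotype with the standard error (SE) of limma. Each gene has its own probes, so differences are taken between arrays of the same gene. The limit for dim genes is a cut on signal alone, and a dim signal may also reflect the probes. Isotype replicate 1 stood apart from the rest, with a Pearson correlation across genes of 0.915 to 0.929 with the other arrays, against 0.962 to 0.986 among these 7. The plot of member differences gives every measured member without it as well. The T cell markers Cd3d, Cd3e, Cd3g, Cd8a, Cd8b1, Cd5 and Cd28 were all above the limit for dim genes in this sort.

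No interferon member passed the threshold after IL-10R blockade, a limma adjusted p below 0.05, in either direction. This was 0 of 26 members, where 2.53% of all 12019 tested genes passed. At an unadjusted p below 0.05, 6 members were higher and 2 lower (23.1% and 7.69%), against 11.5% and 8.53% of all tested genes. An unmoderated Welch test gave 0 adjusted calls as well, with 5 members higher and 2 lower before adjustment (19.2% and 7.69%), against 9.09% and 7.39% of all tested genes. The limma fit without a filter on dim genes called 0 of the 34 members and 0.654% of all 22180 genes, and at an unadjusted p below 0.05 it held 7 members higher and 4 lower (20.6% and 11.8%), against 7.23% and 6.9% of all genes. The median difference over the 26 tested members was 0.13, against 0.028 over all tested genes, and over all 34 measured members it was 0.10. Differences above 0 were found for 20 of the 26, or 76.9%, against 54.7% of all tested genes. Without isotype replicate 1 the median was 0.063, 17 of 26 were above 0 (65.4%, against 48.9% of all genes), and Samd9l and Rtp4 passed the threshold. That fit called 3.35% of all tested genes higher and 5.9% lower. After quantile normalization 18 of the 26 were above 0, against 43.9% of all tested genes, and after centring 18, against 47.4%. Over all tested genes 148 were called higher and 156 lower, which became 204 and 427 after quantile normalization and 42 and 75 after centring. With array weights 3 members were called higher and 1 lower (11.5% and 3.85%), where 5.44% and 6.78% of all tested genes were called. The groups did not overlap for Samd9l, Rtp4, Isg20 and Herc6, which were higher, and for Bst2 and Ifnar2, which were lower. These were 15.4% and 7.69% of the tested members, beside 9.32% and 5.99% of all tested genes.

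**Figure D1:**
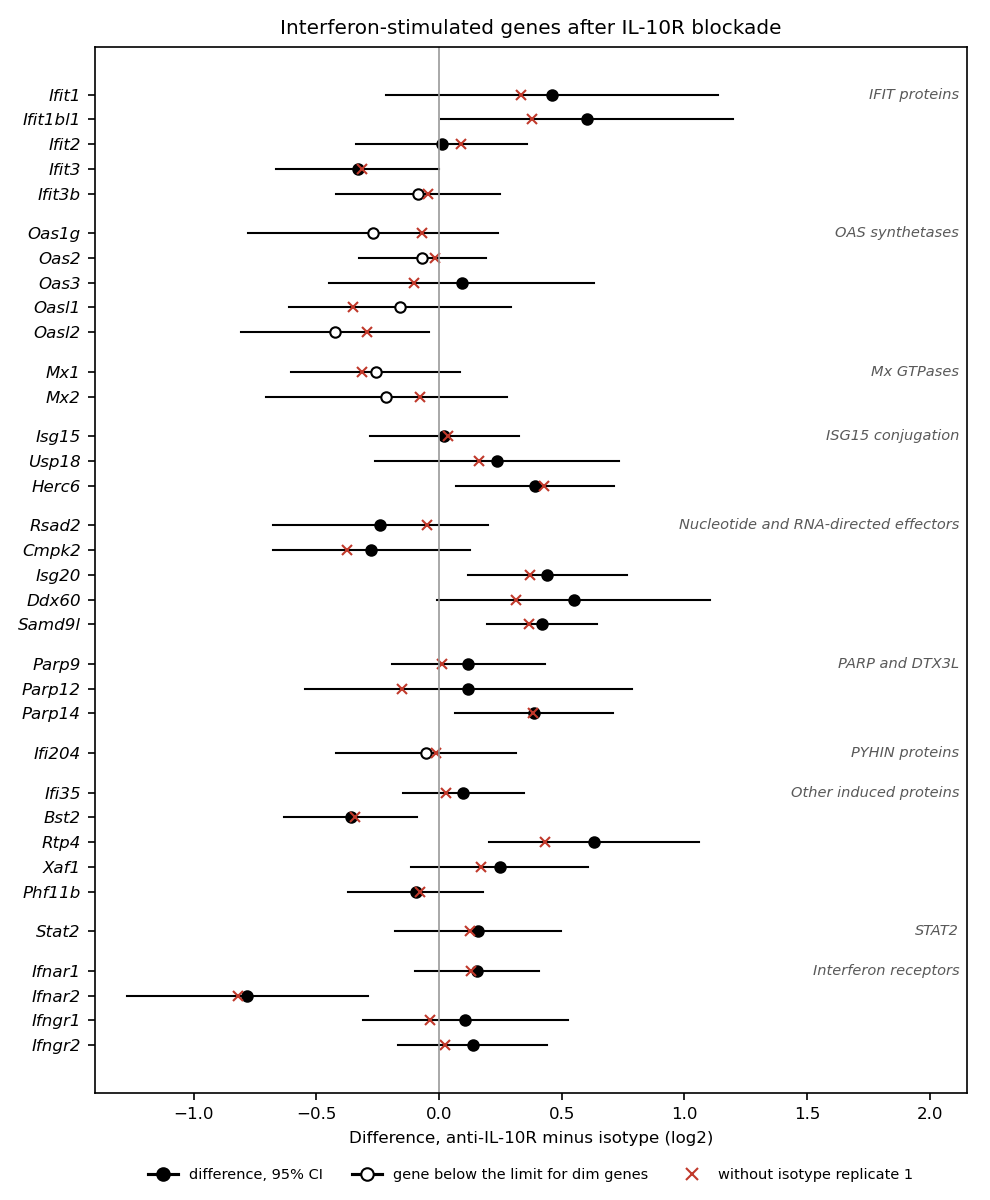
Difference of each of the 34 measured members, anti-IL-10R minus isotype in log2 units (horizontal axis), with its 95% confidence interval (lines, 4 arrays a group), grouped by family; open circles are members below the limit for dim genes and red crosses the differences without isotype replicate 1. Ifnar2 lies farthest below 0 at −0.78 and Rtp4 farthest above at 0.63.

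None of the 4 receptor chains passed the threshold, and 3 had differences above 0 and Ifnar2 one below. Ifnar2, the chain of the type I receptor that binds interferon most tightly, had 6.95, 6.44, 6.52 and 5.77 in the anti-IL-10R arrays, against 7.08, 7.27, 7.13 and 7.34 in the isotype arrays. All anti-IL-10R arrays lay below all isotype arrays, and anti-IL-10R replicate 4 was the lowest of the 8. The difference was −0.78 ± 0.22 (SE, 95% CI −1.27 to −0.29, limma adjusted p = 0.0879), and −0.56 without that replicate. Its partner chain Ifnar1 had 9.01, 8.94, 9.06 and 9.17 in the anti-IL-10R arrays, against 8.82, 9.01, 9.02 and 8.71 in the isotype arrays. These groups overlapped, and the difference was 0.15 ± 0.11 (95% CI −0.099 to 0.41). No test compared the 2 chains with each other. Ifngr1, the ligand-binding chain of the interferon gamma receptor, had 9.77, 9.22, 9.55 and 9.38 in the anti-IL-10R arrays, against 8.94, 9.27, 9.58 and 9.70 in the isotype arrays. Ifngr2, its signalling chain, had 5.76, 5.76, 5.83 and 5.87 in the anti-IL-10R arrays, against 5.33, 5.76, 5.93 and 5.66 in the isotype arrays. Both spanned ranges that overlapped, with differences of 0.11 ± 0.19 and 0.14 ± 0.14. Isotype replicate 1 was the lowest array for both, and without it the differences were −0.037 and 0.025.

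Stat2, a signal carrier of the type I response, had 8.84, 8.50, 8.46 and 8.32 in the anti-IL-10R arrays, against 8.27, 8.47, 8.13 and 8.62 in the isotype arrays. The highest value was in anti-IL-10R replicate 1 and the lowest in isotype replicate 3, and the groups overlapped. The difference of 0.16 ± 0.15 (95% CI −0.18 to 0.50, limma adjusted p = 0.609) was smaller than the spread within either group. It was 0.056 without anti-IL-10R replicate 1 and 0.24 without isotype replicate 4.

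The IFIT genes encode proteins with tetratricopeptide repeats that bind viral RNA or hold back its translation. Their differences lay on both sides of 0, and none passed the threshold. Ifit1, which binds RNA with an unmethylated cap, had 6.89, 6.25, 6.10 and 5.25 in the anti-IL-10R arrays, against 5.27, 5.90, 5.79 and 5.67 in the isotype arrays. Anti-IL-10R replicate 1 was the highest and replicate 4 the lowest of all 8 arrays, so the treated group enclosed the isotype group. The difference of 0.46 ± 0.30 (limma adjusted p = 0.436) was 0.21 without anti-IL-10R replicate 1 and 0.75 without replicate 4. Ifit1bl1, a mouse gene similar to Ifit1, had 7.22, 7.52, 7.35 and 7.37 in the anti-IL-10R arrays, against 6.08, 6.42, 7.46 and 7.08 in the isotype arrays. The anti-IL-10R arrays were close together, whereas the isotype arrays spanned 1.37 log2 units and reached into them. Its difference was 0.60 ± 0.27 (limma adjusted p = 0.244), or 0.38 without isotype replicate 1. Ifit2 had 6.51, 6.97, 6.69 and 6.45 in the anti-IL-10R arrays, against 6.88, 6.68, 6.35 and 6.67 in the isotype arrays. The groups overlapped with a difference of 0.011 ± 0.16 (95% CI −0.34 to 0.36), which was below 0 after quantile normalization and after centring of the arrays. It was 0.090 without isotype replicate 1 and −0.095 without anti-IL-10R replicate 2. Ifit3, which stabilises IFIT1 in human cells, had 6.18, 6.50, 6.66 and 6.72 in the anti-IL-10R arrays, against 6.89, 7.04, 6.84 and 6.61 in the isotype arrays. All anti-IL-10R arrays were below isotype replicates 1, 2 and 3, whereas isotype replicate 4 lay among them, and the difference was −0.33 ± 0.15 (limma adjusted p = 0.253). Ifit3b, the near copy of Ifit3, was dim, with 3.57, 3.86, 3.45 and 3.48 in the anti-IL-10R arrays, against 3.80, 3.37, 3.59 and 3.94 in the isotype arrays and a difference of −0.085 ± 0.15, or −0.044 without isotype replicate 1. Probes of copies this similar may not measure each gene alone.

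Most genes of the OAS family, named for enzymes that make 2-5A to activate the nuclease RNase L, were dim on these arrays. Oas3, which responds to long double-stranded RNA, was the single tested member. It had 6.25, 5.75, 5.85 and 6.06 in the anti-IL-10R arrays, against 5.30, 5.72, 5.97 and 6.55 in the isotype arrays. Isotype replicates 1 and 4 were the lowest and the highest of all arrays, and the difference of 0.092 ± 0.24 became −0.10 without replicate 1 and 0.31 without replicate 4. Oasl2, an OAS-like protein, was below the limit and had 4.20, 3.88, 4.24 and 4.48 in the anti-IL-10R arrays, against 5.02, 4.58, 4.56 and 4.34 in the isotype arrays. Its difference was −0.43 ± 0.17 (limma adjusted p = 0.302 over all genes without a filter). Oas1g had 3.12, 3.19, 2.95 and 2.98 in the anti-IL-10R arrays, against 3.92, 3.52, 3.22 and 2.65 in the isotype arrays, with its highest values in isotype replicates 1 and 2. Oas2 had 4.97, 4.92, 4.73 and 4.95 in the anti-IL-10R arrays, against 5.11, 4.81, 4.86 and 5.04 in the isotype arrays, and Oasl1, which in mice restrains translation of Irf7, had 5.06, 5.11, 5.14 and 4.92 in the anti-IL-10R arrays, against 4.64, 5.30, 5.14 and 5.77 in the isotype arrays. Without isotype replicate 1 the difference of Oas1g was −0.071, that of Oas2 −0.014 and that of Oasl1 −0.35. Without isotype replicate 4 that of Oasl1 was 0.027. The groups overlapped for Oas1g, Oas2 and Oasl1, with differences of −0.27 ± 0.23, −0.067 ± 0.12 and −0.16 ± 0.20. A further row that named both Oas1a and Oas1g was not used.

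The Mx GTPases, which trap viral nucleoproteins, were dim as well. Mx1 had 4.52, 4.50, 4.59 and 4.05 in the anti-IL-10R arrays, against 4.50, 4.96, 4.71 and 4.52 in the isotype arrays, and anti-IL-10R replicate 4 lay below the rest. The groups overlapped for both genes, with differences of −0.26 ± 0.15 for Mx1 and −0.21 ± 0.22 for Mx2, and without that array the difference of Mx1 was −0.14. That of Mx2 was −0.046 without anti-IL-10R replicate 3, −0.37 without anti-IL-10R replicate 4 and −0.077 without isotype replicate 1. C57BL/6 mice are known to carry an inactive Mx1 allele.

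Isg15, the ubiquitin-like protein that is attached to other proteins during the response, had 8.02, 8.31, 7.79 and 7.77 in the anti-IL-10R arrays, against 7.99, 7.90, 7.93 and 7.98 in the isotype arrays. The isotype arrays lay within 0.090 log2 units of one another and inside the range of the anti-IL-10R arrays. The difference was 0.022 ± 0.14 (95% CI −0.28 to 0.33) and was below 0 after quantile normalization and after centring. The promoter of Isg15 holds the 3 matches shown above. Usp18, which removes ISG15 and blocks signalling at IFNAR2, differed by 0.24 ± 0.22, with 6.44, 5.87, 5.93 and 6.50 in the anti-IL-10R arrays, against 5.74, 5.55, 6.45 and 6.07 in the isotype arrays. Without isotype replicate 2 its difference was 0.10, and without isotype replicate 3 it was 0.40. Herc6, which in mice acts as the main ligase for ISG15, had 9.42, 9.29, 9.63 and 9.39 in the anti-IL-10R arrays, against 9.15, 9.05, 9.27 and 8.69 in the isotype arrays. All its anti-IL-10R arrays were above all isotype arrays, with anti-IL-10R replicate 2 only just above isotype replicate 3. The difference was 0.39 ± 0.14 (limma adjusted p = 0.174).

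Effectors that act on nucleotides and RNA held the member with the smallest p-value. Samd9l, which restrains translation and the growth of blood cells, had 8.07, 8.10, 8.10 and 8.11 in the anti-IL-10R arrays, against 7.52, 7.67, 7.77 and 7.74 in the isotype arrays. The anti-IL-10R arrays lay within 0.043 log2 units of one another and above every isotype array. Its difference was 0.42 ± 0.10 (SE, 1.34-fold, 95% CI 0.20 to 0.65), with a limma adjusted p of 0.0601. Without isotype replicate 1, its lowest array, the difference was 0.37 and the adjusted p 0.031. Isg20, an exonuclease for single-stranded RNA, had 8.27, 8.65, 8.18 and 8.32 in the anti-IL-10R arrays, against 7.70, 8.02, 7.78 and 8.14 in the isotype arrays. Its groups did not overlap, and the difference was 0.44 ± 0.14 (limma adjusted p = 0.131). Ddx60, a helicase of the RNA sensing pathway, had 6.19, 6.69, 6.29 and 6.47 in the anti-IL-10R arrays, against 5.15, 6.38, 5.74 and 6.17 in the isotype arrays, with isotype replicate 1 the lowest. The difference of 0.55 ± 0.25 was 0.31 without that array.

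Rsad2 and Cmpk2 encode viperin and a nucleotide kinase that supplies it, and the genes are neighbours. Rsad2 had 6.06, 6.06, 5.86 and 6.07 in the anti-IL-10R arrays, against 6.82, 5.78, 6.15 and 6.25 in the isotype arrays. Cmpk2 had 6.84, 6.26, 6.87 and 6.30 in the anti-IL-10R arrays, against 6.55, 6.90, 6.88 and 7.05 in the isotype arrays. Both had a negative difference, −0.24 ± 0.20 and −0.28 ± 0.18, with overlapping groups. That of Rsad2 was −0.047 without isotype replicate 1, its highest array, and that of Cmpk2 was −0.37.

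The PARP family members here are ADP-ribosyltransferases, of which PARP9 acts in a complex with DTX3L. Parp14, which takes part in STAT6 and interferon signalling, had 9.14, 9.21, 9.33 and 8.78 in the anti-IL-10R arrays, against 8.72, 8.50, 8.87 and 8.82 in the isotype arrays. Anti-IL-10R replicates 1, 2 and 3 exceeded the whole isotype group, and replicate 4 lay within it. The difference was 0.39 ± 0.14 (limma adjusted p = 0.177). Parp9 and Parp12 both differed by 0.12, with SEs of 0.14 and 0.30. Parp12 ranged most among the arrays of each group, with 8.07, 8.38, 7.49 and 7.48 in the anti-IL-10R arrays, against 6.93, 8.0, 8.20 and 7.82 in the isotype arrays. Without isotype replicate 1 the differences were 0.013 for Parp9 and −0.15 for Parp12.

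Rtp4 had the highest positive difference of the 34 measured members. This receptor transporter protein, which in mice is known to dampen type I interferon responses, had 7.71, 7.66, 7.52 and 7.46 in the anti-IL-10R arrays, against 6.36, 7.31, 7.06 and 7.11 in the isotype arrays. The groups did not overlap, and isotype replicate 1 was the lowest array. The difference was 0.63 ± 0.19 (SE, 1.55-fold, 95% CI 0.20 to 1.06, limma adjusted p = 0.107), and 0.43 (limma adjusted p = 0.0385) without that array. Bst2, or tetherin, which holds budding virus particles at the cell surface, had 9.38, 9.34, 9.10 and 9.11 in the anti-IL-10R arrays, against 9.65, 9.66, 9.38 and 9.69 in the isotype arrays. Every anti-IL-10R array lay below every isotype array, but anti-IL-10R replicate 1 and isotype replicate 3 were equal to 2 decimals. Its difference was −0.36 ± 0.12 (limma adjusted p = 0.138). Bst2 is also a marker of plasmacytoid dendritic cells. Of their other 7 measured markers, Siglech, Ccr9, Klk1, Spib and Cd209d were dim and not tested. Tcf4 and Cox6a2 were tested and differed by −0.021 ± 0.18 and −0.048 ± 0.16. The part of these cells in the difference of Bst2 was not tested.

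Xaf1, a partner of the apoptosis inhibitor XIAP, had 8.39, 7.95, 8.05 and 7.74 in the anti-IL-10R arrays, against 7.55, 7.74, 8.04 and 7.81 in the isotype arrays. Ifi35, an interferon-induced protein with leucine zipper features, had 9.45, 9.59, 9.50 and 9.38 in the anti-IL-10R arrays, against 9.18, 9.44, 9.47 and 9.44 in the isotype arrays. Both had overlapping groups, with differences of 0.25 ± 0.16 for Xaf1 and 0.099 ± 0.11 for Ifi35, and a second and dimmer row of Ifi35 differed by −0.20. Without isotype replicate 1 the difference of Ifi35 was 0.031, and without anti-IL-10R replicate 1 that of Xaf1 was 0.13. Phf11b, a PHD finger protein, had 10.06, 9.62, 9.83 and 9.63 in the anti-IL-10R arrays, against 9.93, 9.90, 9.82 and 9.87 in the isotype arrays. The isotype arrays lay within the range of the anti-IL-10R arrays, and the difference was −0.095 ± 0.12, or −0.19 without anti-IL-10R replicate 1. Ifi204, a DNA sensor of the PYHIN family, was dim, with 2.37, 2.69, 2.67 and 2.52 in the anti-IL-10R arrays, against 2.73, 2.32, 3.02 and 2.39 in the isotype arrays. Its difference of −0.053 ± 0.17 was above 0 after quantile normalization.

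**Figure D2:**
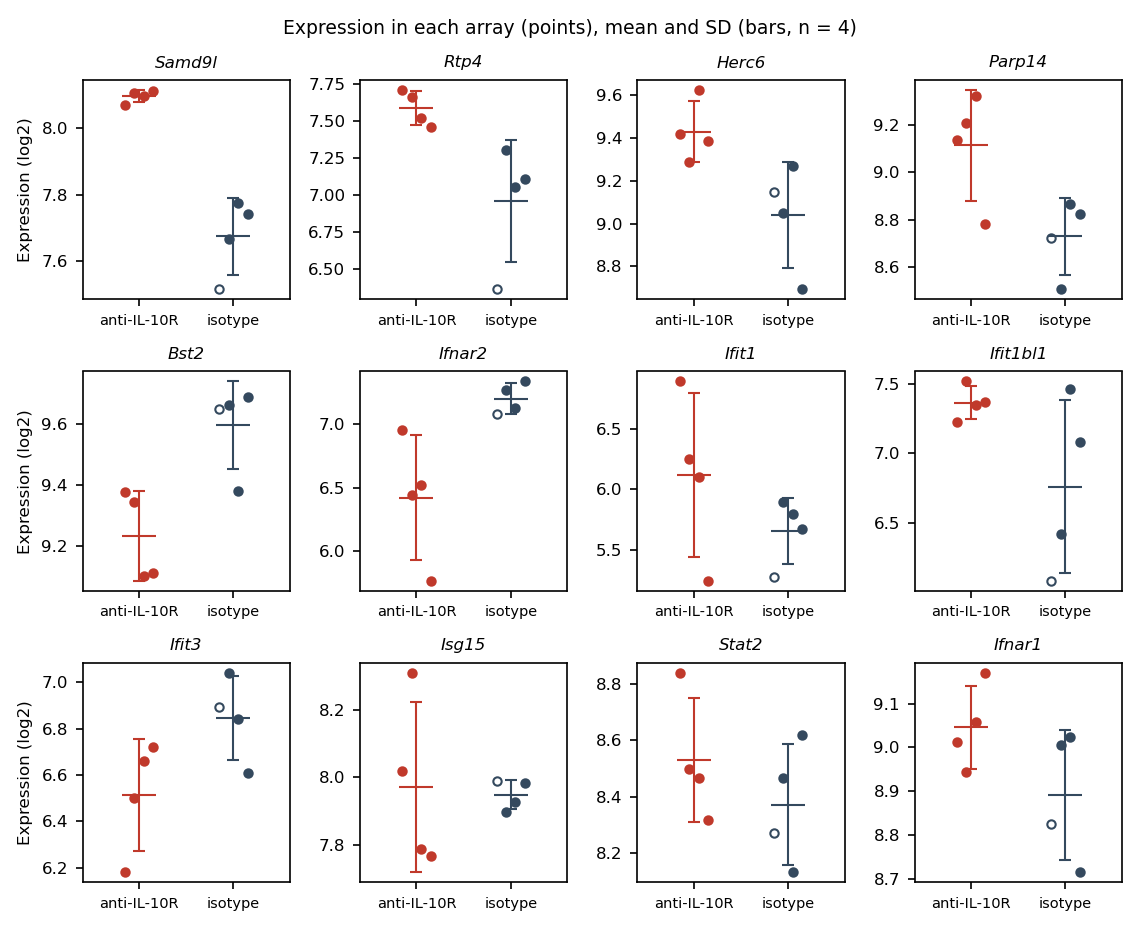
Log2 expression of 12 members in each array (points, vertical axis, scaled per gene) with the mean and SD of 4 arrays a group (bars), anti-IL-10R left of isotype; the open point is isotype replicate 1. Samd9l, Rtp4 and Herc6 show no overlap with higher anti-IL-10R arrays, Bst2 and Ifnar2 no overlap with lower ones, and Isg15 and Stat2 overlap.

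Across the arrays, the 21 tested members other than STAT2 and the receptors were lowest on average in isotype replicate 1. Their mean level was 7.73, 7.72, 7.61 and 7.53 in the anti-IL-10R arrays, against 7.28, 7.50, 7.57 and 7.58 in the isotype arrays. The groups overlapped, because anti-IL-10R replicate 4 was below isotype replicates 3 and 4. Isotype replicate 1 was the lowest of the 8 arrays for 12 of the 26 tested members. The share over all tested genes was not counted. This array stood apart over all genes, so the count cannot be read as a trait of the members. The SD within groups had a median of 0.223 log2 units over the tested members, against 0.219 over all tested genes, and was highest for Ifit1 at 0.516.

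Levels of the cell type markers differed between the arrays as well. The mean of 7 T cell and CD8 markers was 11.17 to 11.39 in the anti-IL-10R arrays, against 10.84 to 11.12 in the isotype arrays, without overlap. The mean of 9 B cell markers, the lineage of the transplanted leukaemia, was 5.00 to 5.25 in the anti-IL-10R arrays, against 5.05 to 5.77 in the isotype arrays. The summed log2 level of these 9 was 44.96 to 47.22 in the anti-IL-10R arrays, against 45.47 to 51.93 in the isotype arrays, and 4 of the 9 (Cd79a, Cd79b, Blk and Bank1) reached the limit for dim genes, whereas Ms4a1, Pax5, Fcrla, Cd22 and Ebf1 did not. The limit was also reached by 2 of 9 macrophage and monocyte, 5 of 7 conventional dendritic cell, 3 of 8 plasmacytoid dendritic cell, 1 of 8 neutrophil, 3 of 5 natural killer cell and 0 of 3 erythroid markers. Those of natural killer cells were Klre1, Eomes and Gzma, whereas Ncr1 and Klrb1c were dim, with means of 4.13 and 4.16. Of the conventional dendritic cell markers, Zbtb46, Xcr1 and Wdfy4 lay just above the limit, with means of 5.34, 5.34 and 5.25. Itgax and Cd209a had 6.71 and 6.82. None of the markers that reached this limit passed the threshold in the limma fit. The dimmer markers, with all erythroid ones among them, were not tested in that fit. With the mean of the 9 B cell markers as covariate, the difference of Bst2 was −0.49 and that of Ifnar2 −0.96. That of Rtp4 was 0.54 and that of Samd9l 0.47. None of them passed the threshold in that fit, which called 0.0166% of all tested genes higher and 0.00832% lower. The part of the T cell markers in the member differences was not tested. In bulk RNA of sorted cells, fewer cells of a kind and less RNA per cell cannot be told apart.

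**Figure D3:**
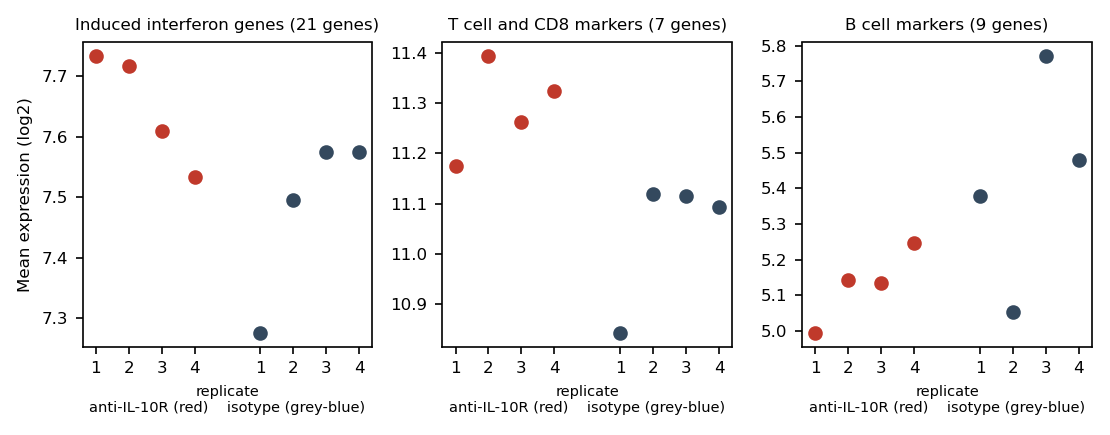
Mean log2 level (vertical axis) of the 21 tested members other than STAT2 and the receptors, of 7 T cell and CD8 markers and of 9 B cell markers in each array (points), anti-IL-10R left of isotype. The members range from 7.53 to 7.73 in the anti-IL-10R arrays, against 7.28 to 7.58 in the isotype arrays.

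The promoter element and the direction of the difference were set side by side for the measured members with a promoter sequence. The 12 with a match had 6 differences above and 6 below 0, between −0.36 and 0.60. The 14 without one had 10 above and 4 below 0, between −0.78 and 0.44. Samd9l, with no match in the window printed above, and Isg15, with 3, thus had differences of 0.42 and 0.022.

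Beyond the 39 members, a list of 100 other genes of the interferon pathway held 4 called higher after IL-10R blockade and 0 called lower. The list was chosen with earlier results of these data known. Its shares therefore describe the list and give no independent support for a rise of the pathway. They were 4 of 73 tested, or 5.48%, beside 1.23% of all tested genes called higher and 1.3% called lower, and 90 of the 100 were measured. At an unadjusted p below 0.05, 22 were higher and 2 lower (30.1% and 2.74%), against 11.5% and 8.53% of all tested genes. The median difference over the 73 was 0.25, against 0.028 over all tested genes, and 56 were above 0 (76.7%, against 54.7%). Slfn8, a Schlafen family gene, had 7.17, 7.24, 7.36 and 7.06 in the anti-IL-10R arrays, against 5.90, 5.54, 6.40 and 6.34 in the isotype arrays. Trim30a, a TRIM protein that dampens inflammatory signalling in mice, had 8.45, 8.49, 8.40 and 8.77 in the anti-IL-10R arrays, against 7.89, 7.83, 7.75 and 7.59 in the isotype arrays. Ddx58, the RNA sensor RIG-I, had 9.19, 9.37, 9.41 and 9.51 in the anti-IL-10R arrays, against 8.36, 8.70, 8.82 and 8.74 in the isotype arrays. In these 3 genes every anti-IL-10R array was above every isotype array. The differences were 1.16 ± 0.19 (limma adjusted p = 0.0236) for Slfn8, 0.76 ± 0.12 (0.0227) for Trim30a and 0.71 ± 0.13 (0.0331) for Ddx58. Uba7, the enzyme that activates ISG15 for conjugation, had 10.12, 10.13, 10.19 and 10.03 in the anti-IL-10R arrays, against 9.45, 9.24, 9.61 and 9.54 in the isotype arrays, also without overlap, and a difference of 0.66 ± 0.11 (limma adjusted p = 0.0269). Uba7 rose while Isg15 had a difference of 0.022, and no test compared them.

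These 4 calls depended on single arrays and on the model. Without isotype replicate 1, 9 genes of the list were called higher, and without isotype replicate 2 or 3 only Slfn8. None was called without isotype replicate 4 or any 1 of the anti-IL-10R arrays. Of all tested genes, 3.35% were called higher without isotype replicate 1, 0.216% without replicate 2 or 3 and 0.0166% without replicate 4. Without 1 anti-IL-10R array it was 0.025% to 0.2%, against 1.23% with all arrays. At an unadjusted p below 0.05 these fits held 27.4% to 34.2% of the list higher, against 8.11% to 11.9% of all tested genes. Lower were 2.74% to 6.85%, against 6.59% to 15.5%. The Welch test, the fit with the B cell marker covariate and the fit with the replicate number as a block called 0 genes of the list. Of all tested genes the Welch test called 0.141% higher and 0.0749% lower, the covariate fit 0.0166% and 0.00832%, and the block fit 0.0166% in each direction. At an unadjusted p below 0.05 the Welch test held 17 genes of the list higher and 4 lower (23.3% and 5.48%), against 9.09% and 7.39% of all tested genes. The covariate fit held 17 higher and 2 lower (23.3% and 2.74%), against 7.95% and 6.66%, and the block fit 23 higher and 2 lower (31.5% and 2.74%), against 10.4% and 7.37%.

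By role, the ligands, the relay and the brakes of the pathway held no call. These were 0 of 6, 0 of 9 and 0 of 9 tested genes, beside 2.53% of all tested genes. At an unadjusted p below 0.05, 4 relay genes were higher (44.4%) and 0 lower, against 11.5% and 8.53% of all tested genes. Of the ligands 1 was higher and 1 lower (16.7% each), and of the brakes 0. Ifng, the ligand of the type II receptor, had 9.84, 10.22, 10.02 and 9.73 in the anti-IL-10R arrays, against 10.01, 10.32, 10.33 and 10.21 in the isotype arrays. Anti-IL-10R replicate 2 lay above isotype replicates 1 and 4, so the groups overlapped, with a difference of −0.26 ± 0.14 (limma adjusted p = 0.322). Ifnb1, encoding interferon beta, was dim, with 3.34, 3.69, 3.55 and 3.34 in the anti-IL-10R arrays, against 3.61, 3.58, 3.51 and 3.54 in the isotype arrays. Of the relay, the kinase gene Jak1 had 11.73, 11.77, 11.79 and 11.72 in the anti-IL-10R arrays, against 11.37, 11.45, 11.59 and 11.47 in the isotype arrays. Tyk2, the kinase bound to IFNAR1, had 9.83, 9.92, 9.86 and 9.78 in the anti-IL-10R arrays, against 9.03, 9.50, 9.69 and 9.50 in the isotype arrays. Neither overlapped between groups, and the differences were 0.29 ± 0.097 (limma adjusted p = 0.141) for Jak1 and 0.42 ± 0.14 (0.148) for Tyk2, or 0.28 for Tyk2 without isotype replicate 1. Irf9, which binds DNA together with STAT2, had 8.37, 7.84, 8.11 and 7.57 in the anti-IL-10R arrays, against 7.44, 7.87, 7.81 and 8.0 in the isotype arrays. Irf7, which amplifies the production of type I interferon, had 7.60, 7.48, 7.40 and 6.84 in the anti-IL-10R arrays, against 7.50, 7.23, 7.59 and 7.37 in the isotype arrays. Their groups overlapped, with differences of 0.19 ± 0.19 for Irf9, or 0.060 without anti-IL-10R replicate 1, and −0.094 ± 0.17 for Irf7, or 0.068 without anti-IL-10R replicate 4. Socs1, an inhibitor of the JAK kinases, differed by 0.18 ± 0.15, with overlapping groups, or 0.066 without isotype replicate 1.

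**Figure D4:**
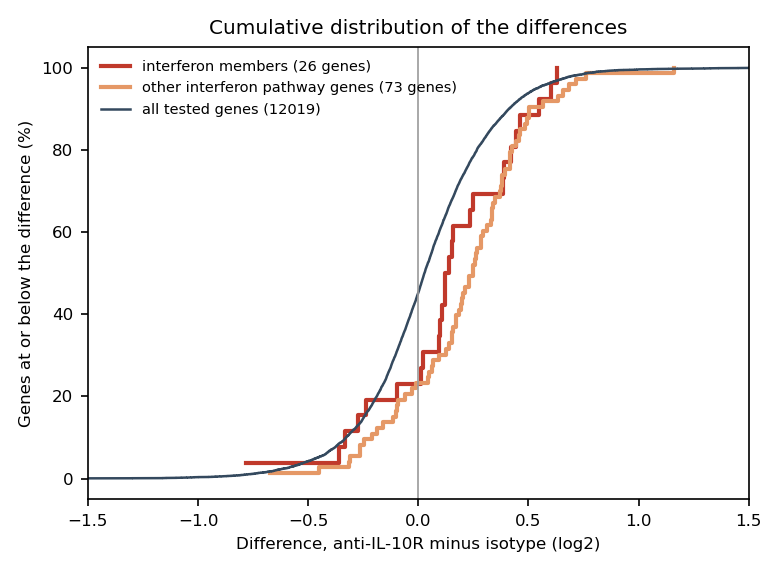
Cumulative share of genes (vertical axis) by their difference, anti-IL-10R minus isotype in log2 units (horizontal axis), for the 26 tested members, the 73 tested pathway genes and all 12019 tested genes. The medians are 0.13, 0.25 and 0.028.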

How the data were processed

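RNA of sorted CD8 T cells was measured on 8 Mouse Gene 2.0 ST arrays, 4 a group. The deposited values are log2 signals, made by the authors with Affymetrix Power Tools according to the submitters' processing notes. Their version, summarisation and normalization were not given in the sources used here. Gene names came from the platform annotation, with symbols checked through gene identifiers. Of several rows of a gene, that with the highest mean over all arrays was kept. Genes with a mean of at least 5.24, the median of row means, entered limma 3.58.1 in R 4.3.3 (lmFit, eBayes without trend, two-sided, Benjamini-Hochberg over 12019 genes); dim members come from the same fit without the filter. Detection per probe is unknown without scanner files, and the number of arrays limits precision.

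The members, lists and tests were chosen with earlier results of these data known. Values per array were set by rule for the smallest p of each family, the IFIT and OAS genes, STAT2, the receptors, and pathway genes called or listed; values of other members, such as Isg20 and Bst2, were chosen after they were seen. The pipeline was tested on simulated data. Alternatives were other filters, scalings, rows, variance models and tests, array weights, a replicate block, a B cell covariate and each array left out. Same-numbered arrays did not deviate together (r −0.05, 0.12, 0.02 and −0.16 across genes), so the numbers were not taken as pairs.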

Additional observations from a re-analysis of the deposited data

Results flagged for a closer look

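In 5 genes a single array lay far from the other 3 of its group, above Dixon's 95% critical value. The check covered 96 combinations of a gene or list with a group, of which chance marks about 5%. Mx1 in anti-IL-10R replicate 4 was 4.05, below 4.50 to 4.59 in the other anti-IL-10R arrays. Rsad2 in anti-IL-10R replicate 3 was 5.86, below 6.06 to 6.07. Parp9 and Ifi35 were both lowest in isotype replicate 1, the array that stood apart over all genes, at 7.42 (other isotype arrays 7.84 to 7.86) and 9.18 (9.44 to 9.47). Bst2 in isotype replicate 3 was 9.38, below 9.65 to 9.69, and without that array its difference was −0.43.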

How the results depend on the processing

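The count of 0 called members became 1 higher under the stricter filter (6.25% of 16 members, beside 3.6% of 6636 genes). It was 1 higher under quantile normalization as well (3.85%, beside 1.7% of all tested genes), with Samd9l in both settings. With array weights it was 3 higher and 1 lower (Samd9l, Rtp4 and Herc6, and Ifnar2, beside 5.44% and 6.78% of all tested genes). With 1 array left out it was 0 to 2 higher and 0 lower, where 0.0166% to 3.35% of all tested genes were called higher. The 4 pathway calls became 2 after centring (2.74%, beside 0.349% of all tested genes called higher). With the trended and robust variance they were 8 (11%, beside 1.87%), and with array weights 13 (17.8% of the list, beside 5.44%). They were 0 with the covariate and the Welch test, and 0 to 9 when 1 array was left out. Quantile normalization and array weights each gave 1 lower call (1.37%, beside 3.55% and 6.78% of all tested genes). With the replicate block 0 members and 0 pathway genes were called, 2 genes higher and 2 lower were called of all tested, and 2 of 8 arrays correlated best with their own number. The median difference of the members was 0.063 to 0.19 with 1 array left out. Family medians then ranged from 0.31 to 0.44 (nucleotide and RNA-directed effectors), 0.13 to 0.34 (IFIT) and 0.10 to 0.40 (ISG15 conjugation). The ranges were 0.013 to 0.27 (PARP), 0.031 to 0.13 (other induced) and −0.0061 to 0.19 (receptors).

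Directions turned for genes with small differences. Under quantile normalization the values were −0.091 for Ifit2, −0.044 for Isg15 and 0.047 for Ifi204, and after centring −0.033 for Ifit2 and −0.022 for Isg15. The covariate gave −0.11 for Ifit2, 0.0013 for Ifit3b, 0.20 for Ifi204 and −0.0068 for Stat2. Array weights gave −0.17 for Oas3, −0.070 for Parp12 and −0.032 for Ifngr1. The mean of all rows gave −0.051 for Ifi35 and for the median of its family. With 1 array left out, ranges crossed 0 for Ifit2 (−0.095 to 0.090), Ifit3b (−0.19 to 0.0035), Oas3 (−0.10 to 0.31), Oasl1 (−0.35 to 0.027), Isg15 (−0.091 to 0.090), Parp12 (−0.15 to 0.27), Ifi204 (−0.15 to 0.082), Ifngr1 (−0.037 to 0.22) and Irf7 (−0.18 to 0.068). The cause was not tested. How far signal over background limits the 8 dim members is unknown without detection values.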
